A study of Homo sapiens with 8 samples.

Results

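The Notch receptors, their ligands and their best known targets were followed across 8 libraries of LY2 cells, a breast cancer line derived from MCF-7 that is resistant to endocrine therapy. The set was defined by gene symbol as NOTCH1, NOTCH2, NOTCH3, NOTCH4, JAG1, JAG2, DLL1, HES1, HEY1 and HEY2, and holds 10 of the 63677 genes in the table. Each symbol marked 1 row apart from NOTCH4, which marked 7, of which 6 carried other identifiers and stood at 0 in every library. All values for NOTCH4 come from the row that held reads. A total of 4 libraries came from cells with a non-targeting short hairpin RNA (shNT) and 4 from cells with a hairpin against NCOA1 (shSRC1), the gene of the nuclear receptor coactivator SRC-1. Both groups were grown with 4-hydroxytamoxifen at 1e-08 M and puromycin at 500 ng/mL, were deprived of steroids for 72 h and were then given 4-hydroxytamoxifen, the active metabolite of tamoxifen, at 1e-07 M for 8 h. No group without tamoxifen and no parental line was analysed here. The labels give neither the number of hairpins nor whether each line is a clone, so the hairpin and the line cannot be told apart. They also do not state that replicates were separate cultures, and p-values therefore describe only how much these libraries vary, a spread that could be technical.

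Notch receptors are cell surface proteins that are switched on by ligands of the Jagged and Delta families on a neighbouring cell. Ligand binding exposes the receptor to an ADAM protease and then to gamma-secretase, and the freed intracellular domain enters the nucleus and joins the DNA-binding protein RBPJ and a Mastermind coactivator. Genes of the HES and HEY families, which encode transcriptional repressors, are classical targets of that complex. In the mammary gland the pathway is known for its part in luminal cell fate, and in breast cancer it has been studied in endocrine resistance. RNA levels of these genes do not measure cleavage of a receptor.

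Recovered depth over genes was 58459196 to 67022036 reads in the shNT libraries. Replicates 1, 3 and 4 of shSRC1 held 65321247 to 66248960, and replicate 2 held 33771775. NCOA1, the hairpin's target, stood at 4381, 4212, 4467 and 4525 normalized reads in shNT replicates 1 to 4 and at 1927, 1895, 2215 and 2107 in shSRC1 replicates 1 to 4. All 9 luminal markers examined were detected, among them ESR1 at a mean of 20472 normalized reads in shNT and 18728 in shSRC1, and 4 of the 9 (KRT8, KRT18, KRT19 and XBP1) were higher in shSRC1. The summed luminal markers ranged from 379839 to 470353 normalized reads in shNT and from 585933 to 650256 in shSRC1. KRT8 was the largest part of that sum, with means of 132214 in shNT and 210603 in shSRC1. The log2 fold change of shSRC1 over shNT was above 0 for 6 of the 9. It was -0.13 for ESR1, -0.07 for FOXA1 and -0.16 for EPCAM, none of them called lower. The 7 basal and myoepithelial markers summed to 632 to 707 normalized reads in shNT and 722 to 836 in shSRC1, and 1 of the 5 tested, TP63, was higher, from 55.5 ± 8.3 to 115 ± 16 normalized reads (SD, n = 4 for each). KRT14, a defining basal marker, averaged 1.1 normalized reads in each group. KRT5 had 1, 3, 15 and 2 reads in shNT replicates 1 to 4 and 38, 12, 0 and 0 in shSRC1 replicates 1 to 4. The log2 fold changes of ACTA2, KRT17, MYLK and OXTR were 0.31, -0.68, 0.06 and 0.04, none of them called. ACTA2 was higher at an unadjusted limma p of 0.0377. The 8 fibroblast and mural markers summed to 1651 to 2207 and 1497 to 2024, overlapping, and 1 of the 6 tested, RGS5, was higher, from 17.9 ± 6.6 to 46.5 ± 1.2 (SD, n = 4 for each). Beside these counts of 4 of 9, 1 of 5 and 1 of 6 markers, 12.0% of all tested genes were higher in shSRC1. The part of these markers in the results below was not tested. A normalized read is a read scaled by its library's size factor. Because RNA came from many cells at once, fewer cells that express a gene and less RNA per cell cannot be told apart.

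Of the 10 genes, 9 had 10 or more normalized reads in 4 or more libraries and were tested, and HEY1 did not. With limma and Benjamini-Hochberg adjustment over all tested genes, HEY2 and DLL1 were lower in shSRC1 and no gene of the set was higher. At an unadjusted limma p under 0.05, 1 gene (NOTCH4) was higher and 2 were lower. The quasi-likelihood test of edgeR and DESeq2, both run on recovered whole reads, likewise called 0 higher and 2 lower after adjustment. At an unadjusted p under 0.05, edgeR gave 1 higher and 2 lower. DESeq2 gave 1 higher and 4 lower at that unadjusted p, with NOTCH1 and NOTCH3 among the lower. The 2 called genes are 22.2% of the 9 tested, beside 23.2% of all 19559 tested genes. Over all tested genes 12.0% were called higher and 11.2% lower. The groups did not overlap for 1 of the 9 genes (HEY2), beside 29.0% of all tested genes. The median log2 fold change was -0.13 over the 9 genes and -0.0025 over all tested genes. In this fit, which has no block for replicate number, both shares lie at or below the background and are no result about the set. All log2 fold changes below compare shSRC1 with shNT and are on the scale of log2(normalized reads + 1).

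**Figure D1:**
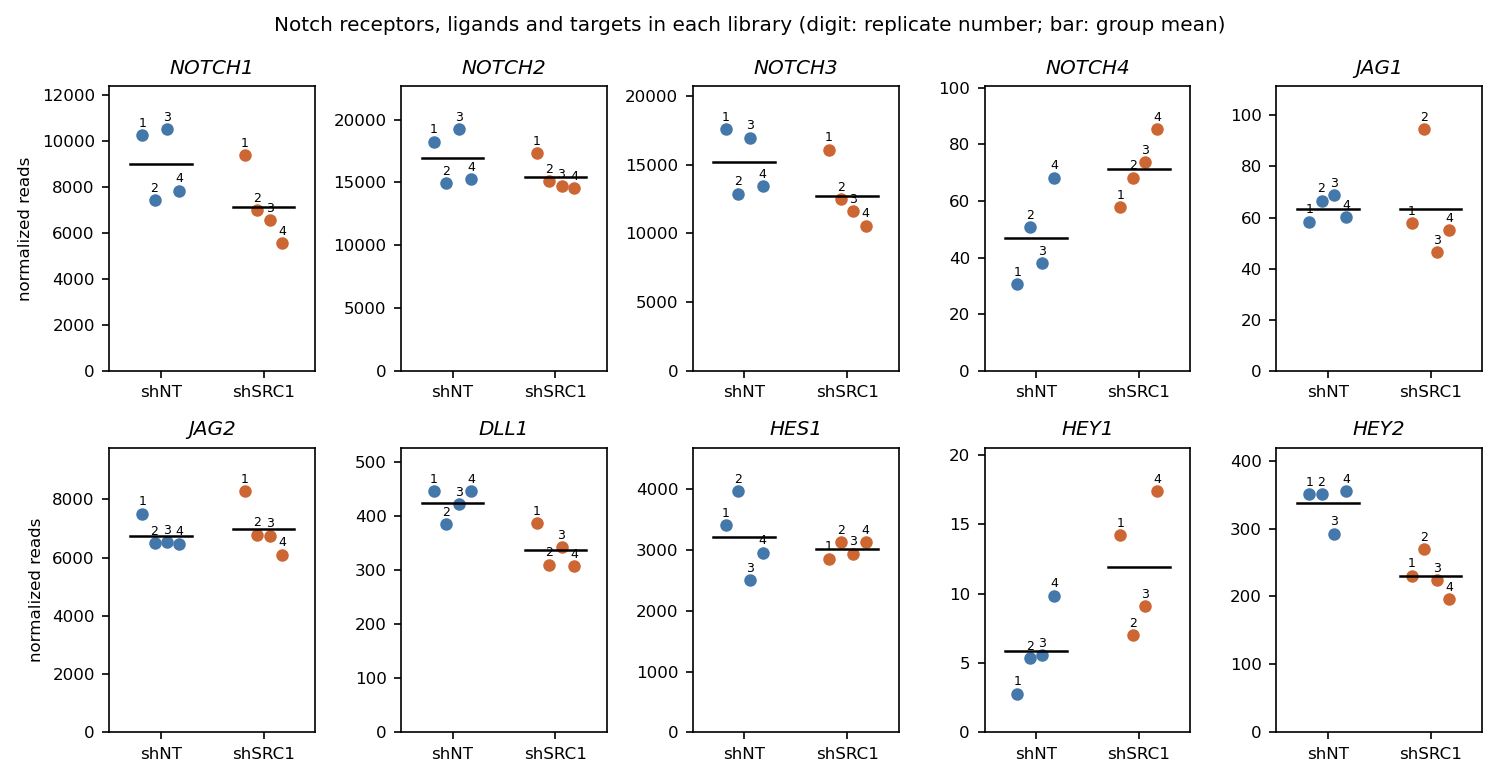
Normalized reads (vertical axes, each starting at 0) of the 10 genes in the 4 shNT libraries (blue) and the 4 shSRC1 libraries (orange), with replicate numbers beside the points and bars at the group means. HEY2 is the gene whose groups do not overlap, with 292 to 355 in shNT and 196 to 269 in shSRC1.

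Among the receptors, NOTCH1 (ENSG00000148400, chromosome 9) stood at 10246, 7416, 10502 and 7835 normalized reads in shNT replicates 1 to 4. In shSRC1 replicates 1 to 4 it stood at 9376, 7002, 6571 and 5551. The groups overlapped, since shSRC1 replicate 1 lay above shNT replicates 2 and 4. The means were 8999.6 ± 1599 (SD, n = 4) and 7125 ± 1620 (SD, n = 4). The log2 fold change of NOTCH1 was -0.35 with a standard error of 0.16, and limma's adjusted p of 0.134 did not pass the threshold of 0.05. Without shSRC1 replicate 1 the log2 fold change of NOTCH1 was -0.49 with a limma adjusted p of 0.0307. After each library was corrected for transcript length and GC content it was -0.33 with a limma adjusted p of 0.0444. Over all 20 alternative settings its adjusted p ranged from 0.0143 to 0.389.

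NOTCH3 (ENSG00000074181, chromosome 19) is a receptor best known in vascular smooth muscle that is also expressed in luminal breast cells. Its values were 17555, 12888, 16950 and 13420 normalized reads in shNT and 16087, 12479, 11606 and 10569 in shSRC1. Here too shSRC1 replicate 1 lay within the shNT range and shSRC1 replicates 2, 3 and 4 lay below every shNT library. The log2 fold change of NOTCH3 was -0.27 with a standard error of 0.13 and a limma adjusted p of 0.161. Without shSRC1 replicate 1 it was -0.39 with a limma adjusted p of 0.0468, within a range of 0.0325 to 0.406 over all alternative settings.

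NOTCH2 (ENSG00000134250, chromosome 1) is a receptor whose first exons have near-identical copies in the NOTCH2NL genes, so its reads could be split among them. It stood at 18240, 14954, 19219 and 15287 normalized reads in shNT and at 17330, 15102, 14683 and 14520 in shSRC1. The groups overlapped. NOTCH2 had a log2 fold change of -0.13, with a 95% confidence interval of -0.34 to 0.08 and a limma adjusted p of 0.354.

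These 3 receptors shared an order of libraries. In each, shNT replicates 1 and 3 were above shNT replicates 2 and 4, and shSRC1 replicate 1 was the highest of its group. The same order held for 1790 of the 19559 tested genes, or 9.15%. Among the 55 tested genes of the pathway described here it held for 7, namely NOTCH1, NOTCH2, NOTCH3, JAG2 and the nuclear cofactors SPEN, EP300 and CREBBP. These 7 genes have long transcripts, from 5835 to 12232 bases, and their GC content ranged from 49.4% to 64.0%. Across all tested genes, the Spearman correlation of a library's deviation with GC content was 0.18, -0.09, -0.22 and -0.21 in shNT replicates 1 to 4 and 0.48, 0.19, -0.10 and -0.22 in shSRC1 replicates 1 to 4. Replicate 1 had the highest of these values in each group. The shNT replicate 3 had the lowest in shNT, nearly the same as shNT replicate 4. With transcript length the correlations ranged from -0.01 to 0.11 in shNT and from -0.17 to -0.01 in shSRC1. These correlations run over genes, which are not independent replicates. The order was looked for after the values had been seen, and its source was not tested.

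**Figure D2:**
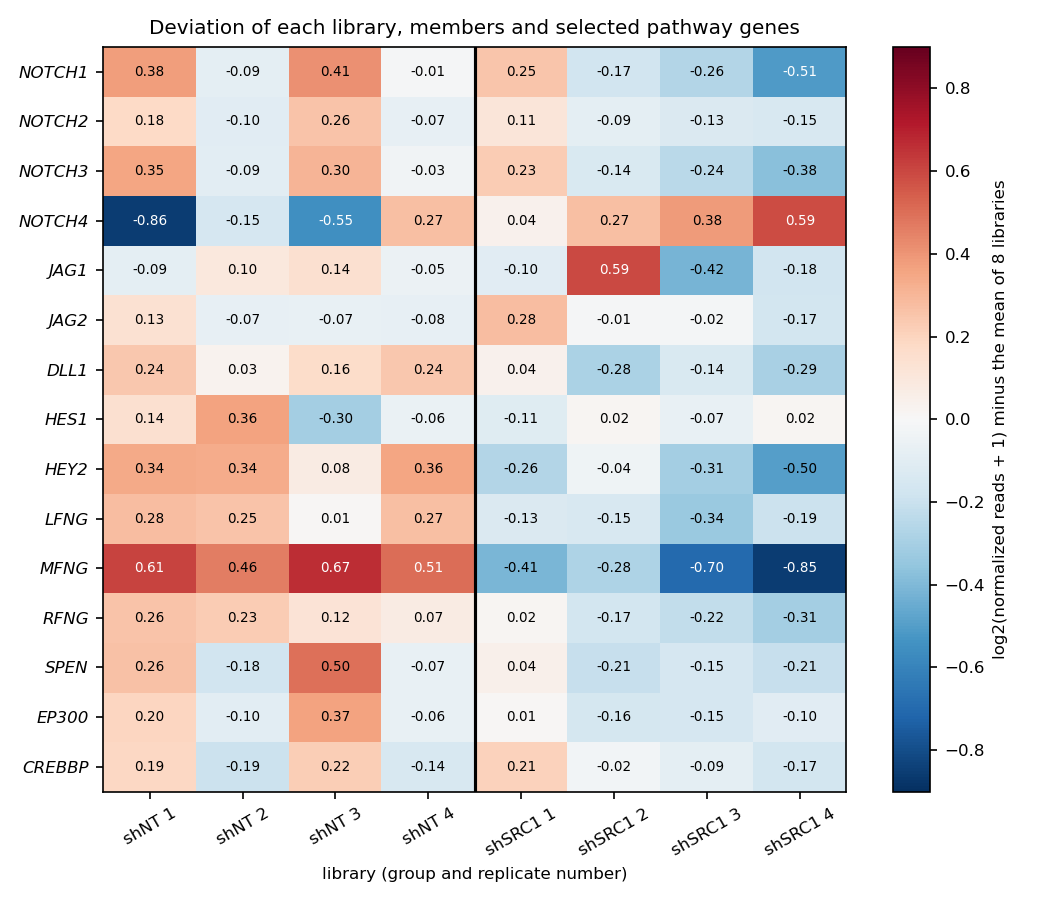
Deviation of each library (columns) from the mean of the 8 libraries, in log2(normalized reads + 1), for 9 genes of the set and 6 other pathway genes (rows), with red above and blue below the mean. NOTCH1, NOTCH2 and NOTCH3 share the order of libraries seen in SPEN, EP300 and CREBBP, whereas MFNG separates the groups.

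NOTCH4 (ENSG00000204301, chromosome 6) is a receptor known mainly from endothelial cells. It was scarce, with 207 reads over the 4 shNT libraries and 274 over the 4 shSRC1 libraries. Its values were 30.6, 50.6, 38.1 and 68.2 normalized reads in shNT and 57.9, 68.2, 73.6 and 85.2 in shSRC1. The groups overlapped through shNT replicate 4. The log2 fold change of NOTCH4 was 0.64, with a 95% confidence interval of 0.12 to 1.17 and a limma adjusted p of 0.0717, and the exact two-sided permutation p was 0.0571. Without shNT replicate 4 the log2 fold change was 0.84 with a limma adjusted p of 0.0262, within a range of 0.0262 to 0.195 over all alternative settings. The annotated exons of NOTCH4 share 98 bases with GPSM3 on the same strand, and its reads are uncertain to that extent.

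The 8 endothelial markers summed to 331 to 372 normalized reads in shNT and 330 to 371 in shSRC1, so the sums overlapped. Most of that sum was VWF, and 1 marker, PECAM1, was at 0 in all libraries. TEK had 1 read in each group. CDH5 had 30 reads in shNT and 7 in shSRC1, and KDR went the other way, with 16 reads in shNT and 68 in shSRC1 and no overlap of normalized values. Limma called 0 of the 3 endothelial markers that could be tested, beside 23.2% of all tested genes. The count was also 0 at an unadjusted p under 0.05 and in edgeR and DESeq2. Without the filter on low values limma called 1 of 7, KDR, higher. The part of these markers in the NOTCH4 values was not tested.

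JAG1 and JAG2 encode the Jagged ligands and DLL1 encodes a Delta ligand. JAG2 (ENSG00000184916, chromosome 14) was the abundant ligand, with 7503, 6504, 6531 and 6481 normalized reads in shNT and 8284, 6790, 6751 and 6094 in shSRC1. Its exons share 469 bases with AL512356.1 on the same strand, where reads are uncertain. The shSRC1 libraries spanned the whole shNT range. For JAG2 the log2 fold change was 0.04, with a 95% confidence interval of -0.17 to 0.25 and a limma adjusted p of 0.786.

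JAG1 (ENSG00000101384, chromosome 20) was present at a low level, with 58.5, 66.6, 68.7 and 60.1 normalized reads in shNT and 57.9, 94.5, 46.3 and 55.0 in shSRC1. The shSRC1 libraries spread on both sides of the shNT range. The value of 94.5 came from the library with the fewest reads. JAG1 had a log2 fold change of -0.05 with a 95% confidence interval of -0.52 to 0.42 and a limma adjusted p of 0.889, which leaves room for a change in either direction.

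DLL1 (ENSG00000198719, chromosome 6) fell in shSRC1. It stood at 445, 385, 421 and 446 normalized reads in shNT and at 386, 310, 342 and 307 in shSRC1. Only shSRC1 replicate 1 reached the shNT range, lying above shNT replicate 2 by less than 2 normalized reads. The means were 424 ± 29 (SD, n = 4) and 336 ± 37 (SD, n = 4). The log2 fold change of DLL1 was -0.34 with a standard error of 0.11 and a limma adjusted p of 0.0409, and the exact two-sided permutation p was 0.0571. DLL1 stayed below 0 under all 20 alternative settings and passed the threshold under 13, with limma adjusted p from 0.0133 to 0.107. The limma adjusted p was 0.102 without shNT replicate 1, 0.0990 without shNT replicate 4, 0.106 without shSRC1 replicate 2, 0.0747 without shSRC1 replicate 3 and 0.105 without shSRC1 replicate 4.

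The share of each ligand in the sum of the 3, per kb of transcript, gives a comparison within each library. DLL1 made up 9.77, 9.72, 10.5 and 11.1% of that sum in shNT and 7.85, 7.64, 8.46 and 8.41% in shSRC1. These shares did not overlap between groups, whereas the normalized reads of DLL1 did. JAG2 made up 88.1% to 89.5% in shNT and 90.8% to 91.5% in shSRC1, and JAG1 stayed below 1.3% in every library. The share of DLL1 therefore depends on the level of JAG2 as well. In the sum of the receptors, the shares of NOTCH1, NOTCH2, NOTCH3 and NOTCH4 each overlapped between groups. The shares were chosen after the values had been seen, depend on the lengths used and are given without a test.

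The 14 tested protein-coding neighbours of DLL1 on its chromosome, up to 10 on each side, had a median log2 fold change of -0.04, and 7 of the 14 lay below 0.

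HES1 and HEY2 are the targets with enough reads to test, and the RefSeq entries around their transcription start sites are shown because they hold the core of the element that RBPJ is known to recognise, searched as TGGGAA on both strands. Entries on the GRCh38.p14 build were found for 8 of the 10 genes; none was found for DLL1 and HEY1. Each entry spans 250 bases before the start and 50 after it, and the first 260 bases are printed, 5′ to 3′ along the gene, with TGGGAA or its reverse complement TTCCCA in capitals.
HES1 (chr3:194135898-194136157, plus strand): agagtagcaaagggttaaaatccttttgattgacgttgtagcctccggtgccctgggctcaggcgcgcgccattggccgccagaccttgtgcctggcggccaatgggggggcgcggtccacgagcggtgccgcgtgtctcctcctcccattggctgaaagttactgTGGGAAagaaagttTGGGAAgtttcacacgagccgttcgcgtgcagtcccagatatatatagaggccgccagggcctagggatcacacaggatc
HEY2 (chr6:125749382-125749641, plus strand): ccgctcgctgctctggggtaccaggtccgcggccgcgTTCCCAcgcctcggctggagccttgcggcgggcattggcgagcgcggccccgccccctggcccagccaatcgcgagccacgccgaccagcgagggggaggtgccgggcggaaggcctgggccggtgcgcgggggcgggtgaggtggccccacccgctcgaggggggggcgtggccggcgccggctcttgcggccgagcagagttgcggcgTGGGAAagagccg

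Positions are those of the first printed base of a match. The HES1 entry held TGGGAA at 84 and 70 bases before the start, both on the gene's strand. The HEY2 entry held it on the gene's strand from 3 bases before the start, so that this match runs across the start. As TTCCCA, the HEY2 entry also held it 213 bases before the start, on the other strand. Of the 35116 RefSeq entries of this length, 24.0% held TGGGAA on at least 1 strand. The longer GTGGGAA, which contains TGGGAA, was present in 6.25% of entries, once in that of HES1 and at both positions in that of HEY2. The entries of NOTCH1, NOTCH2, NOTCH3, NOTCH4, JAG1 and JAG2 held neither. A match describes the letters and not binding, which was not measured.

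HES1 (ENSG00000114315, chromosome 3), the most widely used readout of Notch activity, stood at 3406, 3974, 2500 and 2960 normalized reads in shNT and at 2859, 3126, 2941 and 3132 in shSRC1. All 4 shSRC1 values lay inside the shNT range. The means were 3209.9 ± 629 (SD, n = 4) and 3014 ± 137 (SD, n = 4). HES1 had a log2 fold change of -0.07, with a 95% confidence interval of -0.32 to 0.18 and a limma adjusted p of 0.685.

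HEY2 (ENSG00000135547, chromosome 6), a repressor known for its role in heart and vessel development, fell in shSRC1. It stood at 351, 350, 292 and 355 normalized reads in shNT and at 231, 269, 224 and 196 in shSRC1. Every shSRC1 library was below every shNT library. The means were 337 ± 30 (SD, n = 4) and 230 ± 30 (SD, n = 4), a difference of 31.8% of the shNT mean. The log2 fold change of HEY2 was -0.55 with a standard error of 0.13 and a limma adjusted p of 0.0067. The exact two-sided permutation p was 0.0286, the smallest that 4 libraries against 4 can give. HEY2 passed the threshold under all 20 alternative settings, with log2 fold changes from -0.70 to -0.48 and adjusted p from 3.4e-04 to 0.0246.

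The 20 tested protein-coding neighbours of HEY2, 10 on each side, had a median log2 fold change of 0.03, and 9 of the 20 lay below 0. Of the summed level per kb of HES1, HEY1 and HEY2, HEY2 made up 4.93% to 6.59% in shNT and 3.54% to 4.83% in shSRC1. The genes whose values over the 8 libraries were nearest to those of HEY2 were DUSP5, TSKU and ACOT11. Their root mean square distances from HEY2, on log2 values centred on each gene's mean, were 0.085, 0.099 and 0.10. The log2 fold changes of DUSP5, TSKU and ACOT11 were -0.49, -0.56 and -0.47. That these lie near the value of HEY2 follows from how the genes were picked.

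HEY1 (ENSG00000164683), a close relative of HEY2, was near the limit of detection. It had 3, 6, 6 and 11 reads in shNT replicates 1 to 4 and 15, 4, 10 and 19 in shSRC1 replicates 1 to 4. The normalized values overlapped, from 2.78 to 9.87 in shNT and from 7.00 to 17.4 in shSRC1. The exact two-sided permutation p for HEY1 was 0.0857. Where no filter on low values was applied, the log2 fold change of HEY1 was 0.93 with a 95% confidence interval of -0.03 to 1.89 and a limma adjusted p of 0.243.

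Levels can be set against each other only per length, and the longest annotated transcript was used. In shNT the order in normalized reads per kb was HES1 at 2034 ± 399, NOTCH3 at 1754 ± 276, NOTCH2 at 1486 ± 187, JAG2 at 1158 ± 86 and NOTCH1 at 967 ± 172 (SD, n = 4 for each). DLL1 at 134 ± 9.1 and HEY2 at 126 ± 11 followed, and JAG1 at 10.7 ± 0.84, NOTCH4 at 6.95 ± 2.44 and HEY1 at 2.56 ± 1.28 came last. The ranges over libraries overlapped between HES1 and NOTCH3, NOTCH3 and NOTCH2, JAG2 and NOTCH1, DLL1 and HEY2, and JAG1 and NOTCH4, so the unpaired ranges do not separate these neighbours. Within single libraries, NOTCH3 was above NOTCH2 and JAG1 above NOTCH4 in all 4 shNT libraries. HES1 was above NOTCH3, JAG2 above NOTCH1 and DLL1 above HEY2 in 3 of the 4.

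The order of the means was the same in shSRC1. There the ranges of NOTCH2 and JAG2 overlapped as well, whereas those of JAG2 and NOTCH1 did not. Within single shSRC1 libraries NOTCH2 was above JAG2 in all 4, NOTCH3 was above NOTCH2 in 3, and JAG1 was above NOTCH4 in 2. With the mean length of all annotated transcripts, HES1 moved to the fourth place behind NOTCH3, NOTCH2 and NOTCH1 in both groups. With the merged length of all annotated exons, JAG2 stood above NOTCH2 in both groups. That length also put NOTCH3 above HES1 in shNT and NOTCH4 above JAG1 in shSRC1. The upper 5 genes, the middle pair of DLL1 and HEY2, and the lower 3 kept their places as blocks under each length used.

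**Figure D3:**
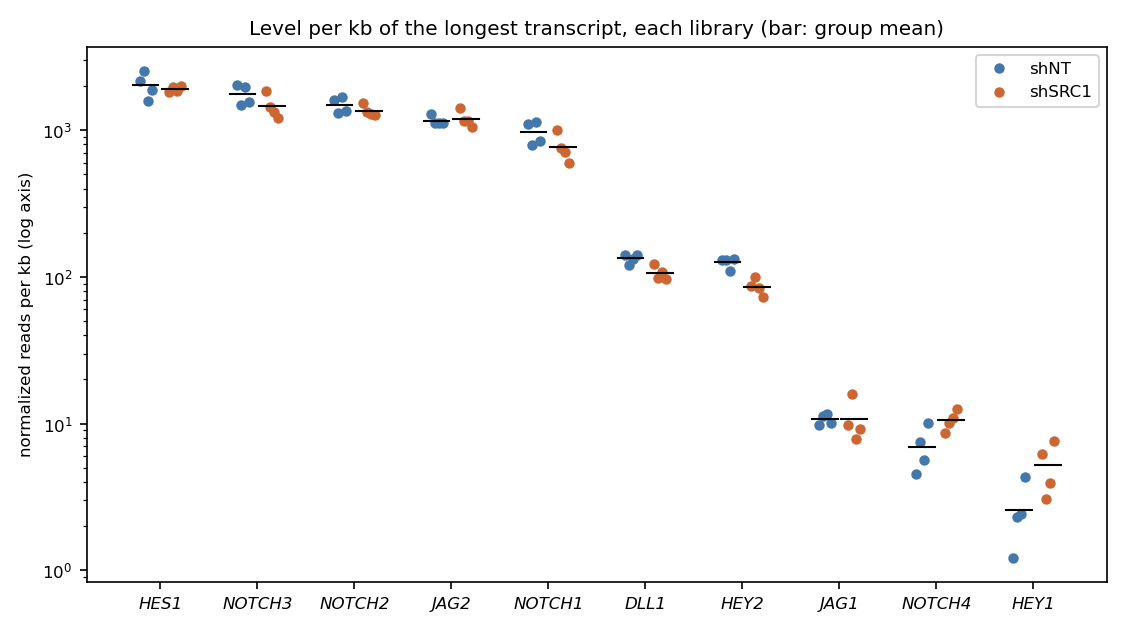
Normalized reads per kb of the longest annotated transcript (vertical log axis) of the 10 genes, ordered by their shNT mean, with 1 point per library for shNT (blue) and shSRC1 (orange) and bars at the group means. HES1, NOTCH3, NOTCH2, JAG2 and NOTCH1 lie above 500 in every library, DLL1 and HEY2 between 73.2 and 140.5, and JAG1, NOTCH4 and HEY1 below 16.

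The other genes of the pathway, 47 in 6 lists by role, were examined in the same fit, and 46 were tested. A total of 3 were higher and 6 lower in shSRC1, or 19.6% called, again beside 23.2% of all tested genes. The groups did not overlap for 8 of the 46, beside 29.0% of all tested genes, and the median log2 fold change was 0.03.

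Of 5 genes for receptor glycosylation, 3 fell and 0 rose in limma, also at an unadjusted p under 0.05, in edgeR and in DESeq2. Over all tested genes 11.2% fell, and a list of 5 genes is described here by its members and not tested as a list. The 3 are the Fringe genes, which encode glycosyltransferases that modify the extracellular part of Notch receptors and alter their response to Jagged and Delta ligands. MFNG fell from 121, 108, 125 and 112 normalized reads in shNT to 58.9, 64.7, 48.2 and 43.1 in shSRC1, with no overlap. Its log2 fold change was -1.12 with a standard error of 0.18 and a limma adjusted p of 0.0006.

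LFNG, the most abundant of them, stood at 2246, 2209, 1864 and 2234 normalized reads in shNT and at 1691, 1673, 1468 and 1619 in shSRC1. The groups did not overlap, and the log2 fold change of LFNG was -0.40 with a limma adjusted p of 0.0049. RFNG fell from 1268 ± 75 to 1005 ± 98 normalized reads (SD, n = 4 for each), again without overlap, with a log2 fold change of -0.34 and a limma adjusted p of 0.0168. The RFNG exons share 835 bases with GPS1 on the opposite strand, and since the labels do not describe a stranded library the reads of the pair cannot be told apart there. The limma adjusted p of RFNG was 0.0550 without shNT replicate 1 and 0.0535 without shSRC1 replicate 4. MFNG and LFNG passed under all 20 alternative settings. POFUT1 and POGLUT1, which add the first sugars to the receptor, had log2 fold changes of 0.09 and 0.05 and did not pass.

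Among 5 other ligands, 1 rose, or 20.0% called, beside 23.2% of all tested genes. DLK2, a non-canonical ligand, went from 101 ± 24 to 144 ± 9 normalized reads (SD, n = 4 for each), with a log2 fold change of 0.54 and a limma adjusted p of 0.0410. DLK2 passed under 9 of the 20 alternative settings and lost its call when any library other than shNT replicate 3 was left out, with adjusted p from 0.0704 to 0.103. None of these 5 fell in limma, edgeR or DESeq2, nor did any at an unadjusted p under 0.05.

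Among 8 genes for receptor proteolysis, 0 were called by limma or edgeR in either direction, with log2 fold changes from -0.22 to 0.28. Over all tested genes limma called 23.2%. At an unadjusted p under 0.05 in limma, PSENEN, a gamma-secretase subunit, was higher, and the protease gene ADAM17 and the gamma-secretase subunit gene APH1B were lower. DESeq2 called ADAM17 lower. The exons of ADAM17 share 1323 bases with IAH1 and 142 with AC073195.1, both on the opposite strand. Those of PSENEN share 332 bases with U2AF1L4, 425 with AD000671.3 and 173 with AD000671.2 on the opposite strand. The PSENEN exons also share 285 bases with AD000671.1 on the same strand. The reads of ADAM17 and PSENEN are therefore uncertain. ADAM17 stood at 2679 ± 95 normalized reads in shNT and 2309 ± 239 in shSRC1 (SD, n = 4 for each), with a log2 fold change of -0.22 and a limma adjusted p of 0.0790.

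Of 9 genes of the nuclear complex, 1 rose and 0 fell in limma, or 11.1% called, beside 23.2% of all tested genes. The counts were the same in edgeR and DESeq2, and 0 were lower at an unadjusted p under 0.05 in limma. At that unadjusted p, SPEN and EP300 were lower and MAML1 was higher in edgeR and DESeq2. SPEN was also lower at that unadjusted p in limma with no filter on low values. MAML3, a Mastermind coactivator, stood at 1176, 1150, 1207 and 1182 normalized reads in shNT and at 1534, 1554, 1551 and 1536 in shSRC1. The 4 libraries of each group lay close together and far from the other group. For MAML3 the log2 fold change was 0.39 with a standard error of 0.08 and a limma adjusted p of 0.0024, and it passed under all 20 alternative settings. Its exons share 252 bases with MGST2 on the opposite strand.

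RBPJ itself had a log2 fold change of -0.17, with a 95% confidence interval of -0.37 to 0.02 and a limma adjusted p of 0.172.

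Of 13 genes for ubiquitin ligases and trafficking, 1 rose and 3 fell, or 30.8% called, beside 23.2% of all tested genes. NEURL1, a ligase that acts on Notch ligands, stood at 117, 98.6, 78.0 and 125 normalized reads in shNT and at 56.0, 59.5, 44.5 and 51.3 in shSRC1, without overlap. Its log2 fold change was -0.96 with a limma adjusted p of 0.0032, and it passed under all 20 alternative settings. Of the 20 tested neighbours of NEURL1, 15 lay below 0, with a median log2 fold change of -0.20. Beside this, 9825 of all 19559 tested genes lay below 0. Among the other pathway genes with 20 tested neighbours, the number below 0 ranged from 2 to 16. The part of the neighbourhood of NEURL1 in its difference was not tested.

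NUMBL, a relative of the Notch antagonist NUMB, fell with a log2 fold change of -0.29 and a limma adjusted p of 0.0394. NUMBL passed under 13 of 20 alternative settings and lost its call without shNT replicate 1, 2 or 4 and without shSRC1 replicate 2, 3 or 4, with adjusted p from 0.0582 to 0.113. DTX3L, a ubiquitin ligase of the Deltex family, fell with a log2 fold change of -0.30 and a limma adjusted p of 0.0357. DTX3L lost its call without shNT replicate 2 or 4 and without shSRC1 replicate 1 or 2, with adjusted p from 0.0756 to 0.109. Its exons share 217 bases with PARP9 on the opposite strand. DTX3 of the same family rose with a log2 fold change of 0.28 and a limma adjusted p of 0.0257, and lost its call without shNT replicate 4 and without shSRC1 replicate 1, 2 or 3, with adjusted p from 0.0519 to 0.0677.

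Of 7 other HES and HEY targets, 6 were tested and 0 were called by limma in either direction, beside 23.2% of all tested genes. At an unadjusted p under 0.05, HEYL was higher and HES7 lower. HEYL stood at 158 ± 27 normalized reads in shNT and 214 ± 32 in shSRC1 (SD, n = 4 for each), with a log2 fold change of 0.44 and a limma adjusted p of 0.0557. HES7 stood at 205 ± 38 and 144 ± 27 normalized reads (SD, n = 4 for each), with a log2 fold change of -0.50 and a limma adjusted p of 0.0541. edgeR called HES7 lower, and DESeq2 called HEYL higher and HES7 lower. NRARP, a feedback inhibitor of Notch signalling, had a log2 fold change of 0.03 with a 95% confidence interval of -0.18 to 0.25 and a limma adjusted p of 0.844. HES5, a target best known in neural cells, had 1 read in each group.

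**Figure D4:**
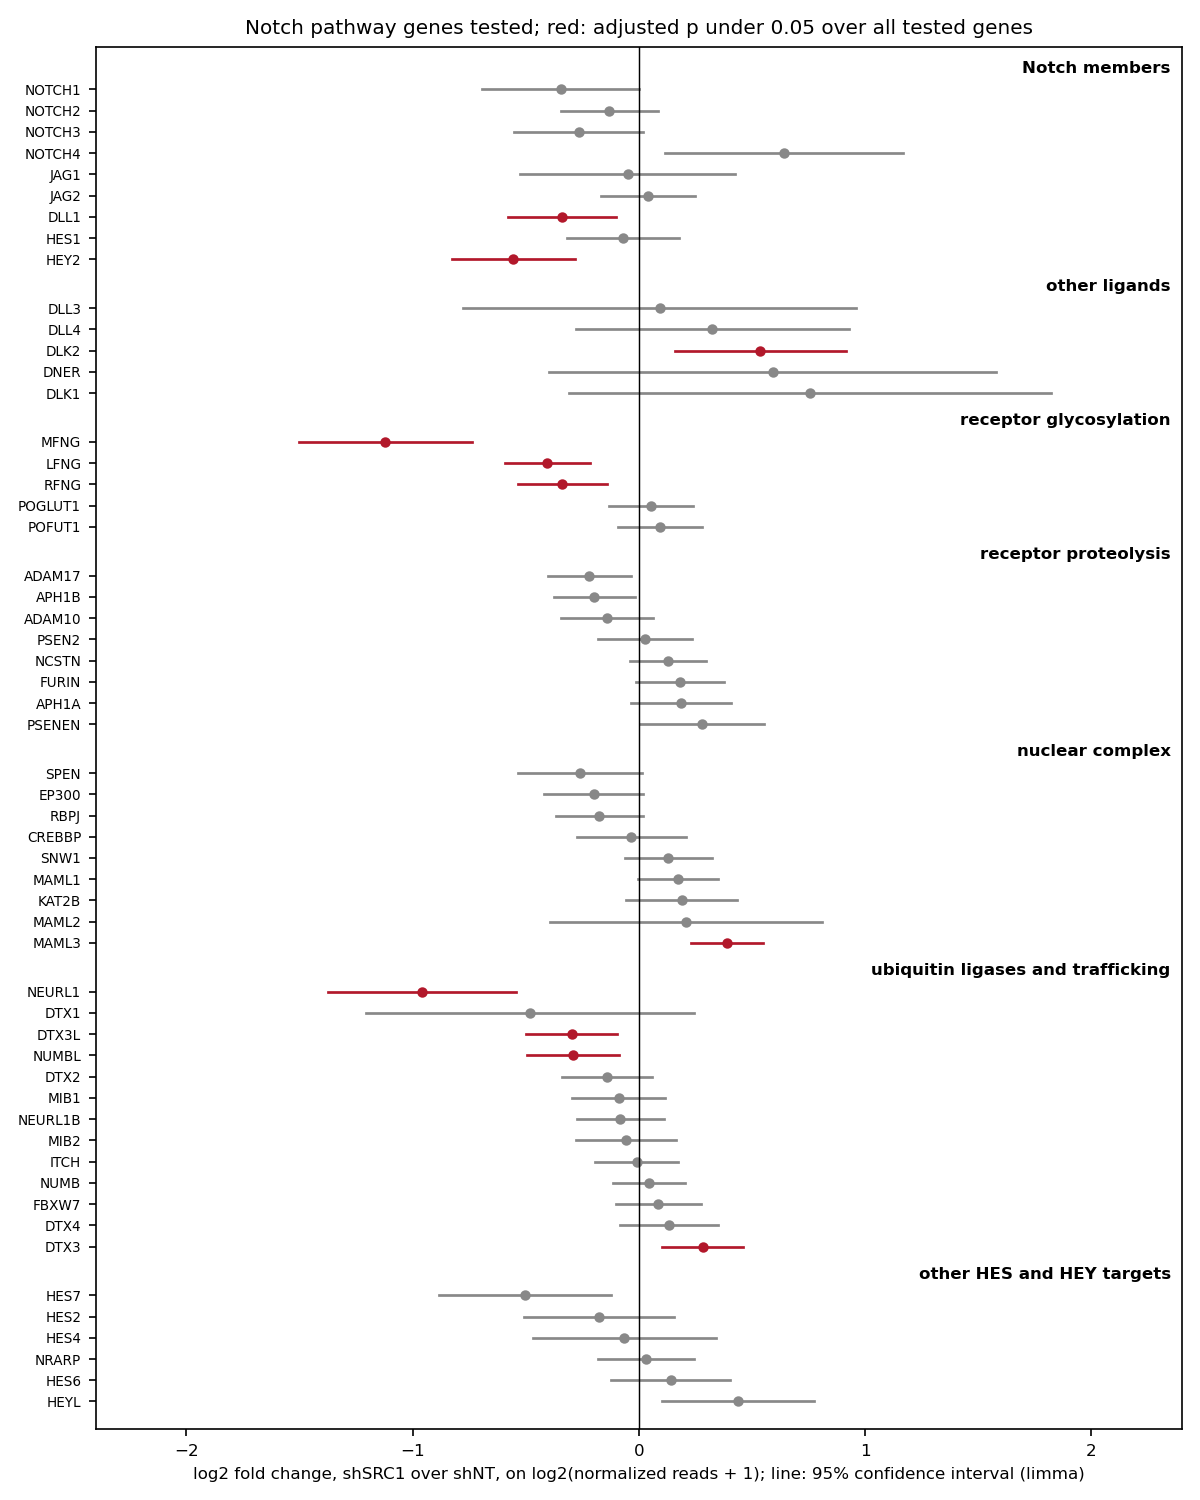
Log2 fold change of shSRC1 over shNT (horizontal axis, on log2(normalized reads + 1)) with 95% confidence intervals from limma for the 9 tested genes of the set and the 46 tested pathway genes, grouped by role, with adjusted p under 0.05 in red. MFNG and NEURL1 lie furthest to the left among the other pathway genes. Within the set, the intervals of NOTCH1, NOTCH2, NOTCH3, JAG1, JAG2 and HES1 span 0.

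**Figure D5:**
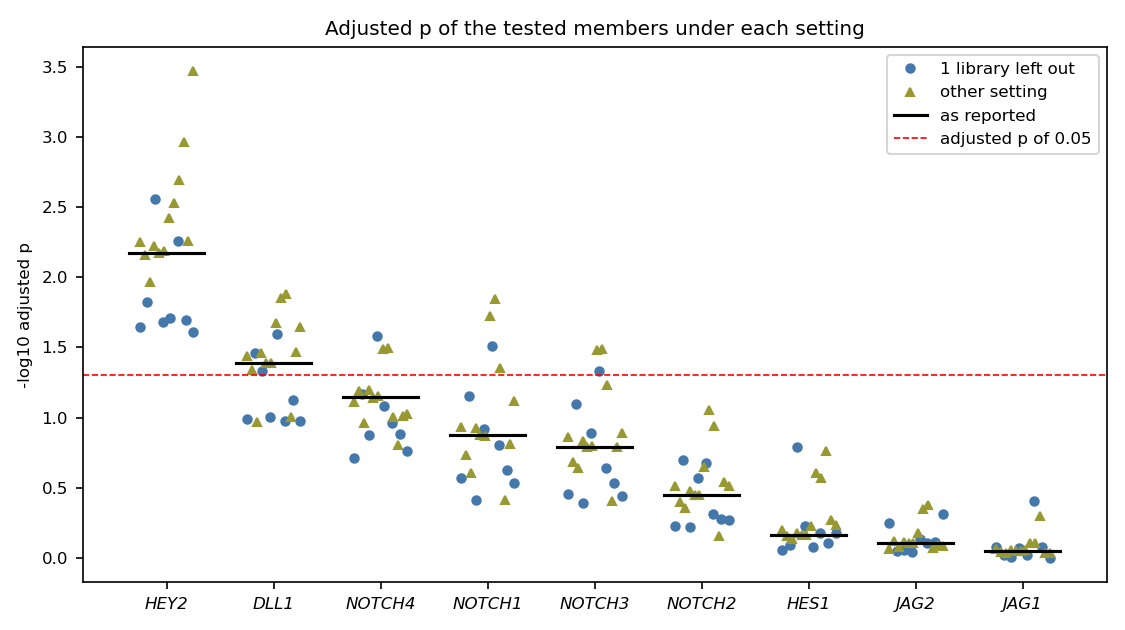
Minus log10 of the adjusted p (vertical axis) of the 9 tested genes as reported (black bar), with 1 library left out (circles) and under the other settings (triangles), with the threshold of 0.05 dashed. HEY2 lies above the threshold in all 20 alternative settings, DLL1 in 13, NOTCH1 in 4, and NOTCH3 and NOTCH4 in 3 each.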

How the data were processed

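Poly(A)-selected RNA of 8 LY2 libraries was sequenced, with groups and replicate numbers taken from the labels. The authors deposited a signal per gene, a read count divided by a size factor, for 63677 genes. Per the submitters' processing notes, the tools were TopHat2 2.0.12 and HTSeq 0.6.1 together with DESeq and DESeq2, on GRCh37. How HTSeq was set, strand included, is not stated in the labels. In every library 100% of the deposited values were whole multiples of 1 read within 0.001 reads, so reads could be recovered. A total of 3 reads equals 2.67 to 2.79 normalized reads in shNT and 2.73 to 5.25 in shSRC1, and such floors cover counting error only.

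Values were tested as log2(value + 1) with limma 3.58.1 (R 4.3.3), using robust variances and a trend of variance with mean, for the 19559 genes that had 10 or more normalized reads in 4 or more libraries, without a replicate block, two-sided, adjusted by Benjamini-Hochberg over all of them with a threshold of 0.05. It called 4538 genes; edgeR 4.0.16 on the recovered reads called 4637 and DESeq2 1.42.0 called 5304. The fit was tested on simulated data. Exact permutation tests used SciPy 1.17.1. GENCODE 29 on GRCh38, another build than that of the table, gave transcript length, GC content, gene order and exon overlap only. The members, the pathway lists and the rule for named genes were chosen with earlier results of these data known. The rule took all 10 members, up to 4 called genes per list by smallest adjusted p, and the 3 genes nearest to the called member with the smallest adjusted p. SPEN, EP300, CREBBP, MAML1, RBPJ, POFUT1, POGLUT1, ADAM17, APH1B, PSENEN, HEYL, HES7, NRARP and HES5 were named after their values were seen. Some genes of the pathway lists are not reported here and are left out of the lists' counts. The alternatives were TMM and upper-quartile scaling, other filters and pseudocounts, a length and GC correction, a replicate block, left-out libraries, edgeR and DESeq2.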

Additional observations from a re-analysis of the deposited data

Results flagged for a closer look

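In 40 groups of 4 libraries (20 genes, 2 groups each), 5 held a library whose gap to the nearest of the others was large enough to pass Dixon's 95% critical value, and chance alone gives about 1 in 20. Among the receptors, ligands and targets, JAG2 was at 7503 normalized reads in shNT replicate 1, apart from the other 3 shNT libraries. HEY2 was at 292 in shNT replicate 3, the lowest of its group and nearest to shSRC1. LFNG was at 1864 in shNT replicate 3 and DTX3L at 4028 in shNT replicate 1. DLK2 was at 157 in shSRC1 replicate 2, the shallowest library.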

How the results depend on the processing

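The 2 genes of the set called lower became 1 with no filter on low values and 1 when shSRC1 replicate 2 and shNT replicate 3 were both left out, and ranged from 1 to 4 with 1 library left out. The genes of the set called higher ranged from 0 to 1 with 1 library left out. Among the other pathway genes, the 3 called higher became 1 and the 6 called lower became 4 with no filter, and they ranged from 1 to 3 and from 4 to 8 with 1 library left out. The log2 fold changes that crossed 0 with 1 library left out were those of JAG1 (-0.26 to 0.081), JAG2 (-0.044 to 0.10) and HES1 (-0.18 to 0.039), none of which was called. The genes called over all tested genes ranged from 3124 to 4776 with 1 library left out. The cause of these shifts was not tested.

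Same-numbered libraries of the 2 groups had correlations of their deviations of 0.24, -0.01, 0.13 and 0.14 for numbers 1 to 4. For numbers 1, 3 and 4 the same-numbered library was the best match in both directions. The shNT replicate 2 and shSRC1 replicate 2 did not correlate best with each other, so the numbers were not taken to pair the libraries. With the replicate block the genes of the set called lower numbered 4 and those called higher 1, with NOTCH1 (limma adjusted p 0.0189) and NOTCH3 (0.0328) joining DLL1 and HEY2 and with NOTCH4 (0.0324) higher, and the counts were 4 and 1 with the block and the length and GC correction. The replicate block raised the number of genes called over all 19559 tested genes from 4538 to 6398, of which 3108 were lower and 3290 higher. With the block and the length and GC correction, 2744 of all tested genes were called lower and 3068 higher. Depth limits HEY1, NOTCH4 and JAG1, whose reads were few.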
